A study of Mus musculus with 6 samples.

Results

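The genes described here are 10 paralogues of the SWI/SNF chromatin remodelling complex: the ATPases Smarca2 and Smarca4, the core subunits Smarcc1, Smarcc2, Smarcd1, Smarcd2 and Smarcd3, and the Arid subunits Arid1a, Arid1b and Arid2. They were taken by name from the 17558 genes of the deposited table, after NCBI gene numbers had been matched to symbols. All 10 were found and all 10 passed the filter on low counts. RNA was sequenced from C2C12, an immortalized mouse myoblast line that fuses into myotubes when serum is lowered. There were 3 groups of 2 libraries, harvested after 48 h in differentiation medium with horse serum and insulin-transferrin-selenium, and labelled wild type. By their titles, the groups carried a scrambled short hairpin RNA (shScr), a hairpin against the Pkm1 isoform of pyruvate kinase (shPkm1) or one against its Pkm2 isoform (shPkm2). Whether each group was 1 clone or a pool of cells is not given in the sources used here, and neither is whether its libraries came from separate cultures. The p-values therefore measure only the spread between these libraries, which may be technical.

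SWI/SNF complexes use the energy of ATP to slide or evict nucleosomes, and so open promoters and enhancers to transcription factors. A complex holds 1 ATPase and a core with Smarcc and Smarcd subunits. The BAF form adds an Arid1 subunit and the PBAF form Arid2, while a non-canonical form holds no Arid subunit. In skeletal muscle, Smarcd3 is known as the Smarcd paralogue that works with MyoD on muscle genes, and the Smarca4 ATPase is needed to switch on the myogenic programme.

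Promoter sequence is shown for 3 genes on which the results turn: Smarca2, which had the largest rise in shPkm1, Smarcd3, the member that fell in both hairpin groups, and Arid1a, which rose in the shPkm2-labelled libraries. RefSeq promoter windows (build GRCm38.p6) were matched for 9 of the 10 genes, Arid2 being the exception. In each, the 250 bases before the start used by the promoter table were searched. Some of these bases lie after the first base of a transcript. The searched Smarca2 bases end at 26605159 and NM_011416.2 starts at 26605052, and those of Smarcd2 also run past a transcript start. The sequences run 5′ to 3′ on the gene's strand, without bases that lie in an annotated exon. They come from chr19:26604910-26605049 (plus strand), chr5:24602013-24602252 (minus strand) and chr4:133753986-133754235 (minus strand). The Smarcd3 and Arid1a windows lie inside the RefSeq spans of their genes. Arid1a has a second window, at the 5′ end of its span (chr4:133756770-133757019), which held none of the letters searched and is not printed. Capitals mark matches to the E-box CAGCTG, a form of the site that MyoD and myogenin bind, or to the E2F-type sites TTTCCCGC and TTTGGCGC, each on either strand.
Smarca2: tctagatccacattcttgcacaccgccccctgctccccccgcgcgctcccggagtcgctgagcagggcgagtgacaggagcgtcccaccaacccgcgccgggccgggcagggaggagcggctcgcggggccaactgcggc
Smarcd3: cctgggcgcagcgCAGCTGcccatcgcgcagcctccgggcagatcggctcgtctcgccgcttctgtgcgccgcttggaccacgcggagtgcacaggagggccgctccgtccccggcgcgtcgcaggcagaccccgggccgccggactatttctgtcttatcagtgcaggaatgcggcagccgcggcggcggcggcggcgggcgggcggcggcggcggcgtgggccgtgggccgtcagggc
Arid1a: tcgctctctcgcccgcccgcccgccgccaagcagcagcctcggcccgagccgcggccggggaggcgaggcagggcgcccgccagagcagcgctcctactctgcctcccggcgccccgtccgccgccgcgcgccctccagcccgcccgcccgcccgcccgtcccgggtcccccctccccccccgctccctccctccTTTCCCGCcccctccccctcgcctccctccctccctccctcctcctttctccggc
The E-box occurred in the window of Smarcd3 and in no other member window, 227 bases before the first base of NM_025891.3. Among all 32841 promoter windows of that length, 13.0% held it. TTTCCCGC occurred once in Smarcd1 (131 bases before the start used by the promoter table) and once in the printed window of Arid1a (55 bases before), against 0.895% of all windows. The Smarcd1 match lies past the first 92 bases of its window, after which an annotated exon begins. TTTGGCGC occurred in no member, against 0.417%. No matches overlapped. A match describes the letters only and is neither a site nor a cause.

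The hairpin targets were read first. The Pkm1 isoform had 546 and 589 TPM (the deposited level per transcript length) in shScr, 243 and 218 in shPkm1, and 254 in each library labelled shPkm2. In the test on transcripts (edgeR quasi-likelihood, adjusted p), it was lower than shScr by -1.66 on the log2 scale in shPkm1 (adjusted p 0.00272) and by -1.58 in the shPkm2-labelled libraries (adjusted p 0.00124). The Pkm2 isoform had 1073 and 1517 TPM in shScr, 1278 and 1379 in shPkm1, and 2700 and 2630 in the shPkm2-labelled libraries, so it was not lower in the group named for it (0.63 against shScr, adjusted p 0.0656). Pkm as a whole gene was at -0.63 in shPkm1 (edgeR adjusted p 0.00107) and at 0.20 in the other hairpin group (adjusted p 0.198). Every direction given for that group named shPkm2 is therefore that of libraries labelled shPkm2, not of a Pkm2 loss.

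Libraries held 18216896 to 19796036 estimated counts. The myoblast label was checked on markers. The myogenic regulator Myod1 had 409 and 375.5 CPM (counts scaled to the TMM library size) in shScr, 208 and 214 in shPkm1, and 78.2 and 89.7 in the shPkm2-labelled libraries. The later regulator Myog had 2336 and 1988 CPM in shScr, 1097 and 1162 in shPkm1, and 49.2 and 56.9 in the shPkm2-labelled libraries, and the proliferation marker Mki67 went the other way, from 67.7 and 81.0 to 203 and 206 and to 613 and 501. Of 10 myotube markers, 10 were lower and none higher in each hairpin group, and of 10 cell cycle markers 9 were higher in shPkm1 and 10 in the shPkm2-labelled libraries. The summed myotube markers took 3.18% to 4.29% of a library's counts in shScr, 1.38% to 1.53% in shPkm1 and 0.152% to 0.159% in the shPkm2-labelled libraries, and the cell cycle markers 0.0345% to 0.0438%, 0.0842% to 0.0856% and 0.249% to 0.264%. Their part in the SWI/SNF results was not tested. Fewer myotubes and less RNA per cell cannot be told apart in such bulk libraries. Endothelial and immune markers summed to at most 0.000109% and 0.000258%. Adipocyte markers had 0.000195% and 0.000249% in shScr, 0.000445% and 0.00046% in shPkm1, and 0.000378% and 0.000322% in the shPkm2-labelled libraries, and the 1 that could be tested was called higher in shPkm1 and not in the shPkm2-labelled libraries. The summed bone or cartilage markers moved with the groups, at 0.00479% and 0.00585% in shScr, 0.00808% and 0.00736% in shPkm1, and 0.0136% and 0.0121% in the shPkm2-labelled libraries, where both of the 2 tested markers of 7 were called higher than shScr. In shPkm1, 1 of these 2 was called higher and 1 lower. Ibsp was at 0 in every library, and the part of these markers in the results was not tested either.

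TPM was used for levels and for ratios between genes, and TMM-scaled CPM for differences between groups. The scales are not interchangeable here. Over 12401 genes with TPM above 0 in every library, the median log2 TPM change from shScr was 0.39 in shPkm1 and 0.47 in the shPkm2-labelled libraries, while TMM sets that median close to 0. Library totals without TMM moved the median by 0.19, 0.32 and 0.13 in shPkm1 against shScr, the shPkm2-labelled libraries against shScr, and the latter against shPkm1. The share of calls that were higher then went from 50.3% to 65.8%, from 49.8% to 69.3% and from 48.4% to 61.3%. On log2(TPM + 1), with limma, Smarcd3 fell by 0.45 (adjusted p 0.00529) and 0.51 (adjusted p 0.00218) against shScr in the 2 hairpin groups, and Smarcd1 rose by 0.77 (adjusted p 0.000373) and 1.48 (adjusted p 2.89e-06), to be read against those medians.

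In shPkm1, 3 of the 10 members rose (Smarca2, Smarcd1 and Arid2), 2 fell (Smarca4 and Smarcd3) and 5 did not pass the test. Of all 12643 genes tested, 63.1% were called, 31.8% higher and 31.4% lower, so the members' share of calls was not above the background. The split of the members depended on the scale: with library totals 5 rose and 1 fell, and with limma on log2(TPM + 1) 6 rose and 1 fell. All genes shifted too: with library totals 65.8% of their calls were higher, and their median log2 TPM change was 0.39. Their calls with limma were not counted. The median log2 fold change was 0.09 for the members and 0.00 for all genes. In the shPkm2-labelled libraries, 8 of 10 rose, Smarcd3 fell and Arid1b did not pass, with 68.0% of all genes called, 33.9% higher and 34.2% lower. The members' median was 0.54, against 0.01 for all genes. Compared directly, 5 of 10 members were higher and Smarca2 was lower in the shPkm2-labelled libraries than in shPkm1 (background 53.0% called, 25.7% higher and 27.3% lower), with a median of 0.42. Of the 12643 genes, 5142 lay above shScr without overlap in CPM and 5094 below in shPkm1. In the shPkm2-labelled libraries 5336 lay above and 5273 below, and directly 5081 and 5004. For the members these counts were 5 and 4, 8 and 1, and 8 and 2. Groups without overlap are thus the rule here, not a trait of the members.

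**Figure D1:**
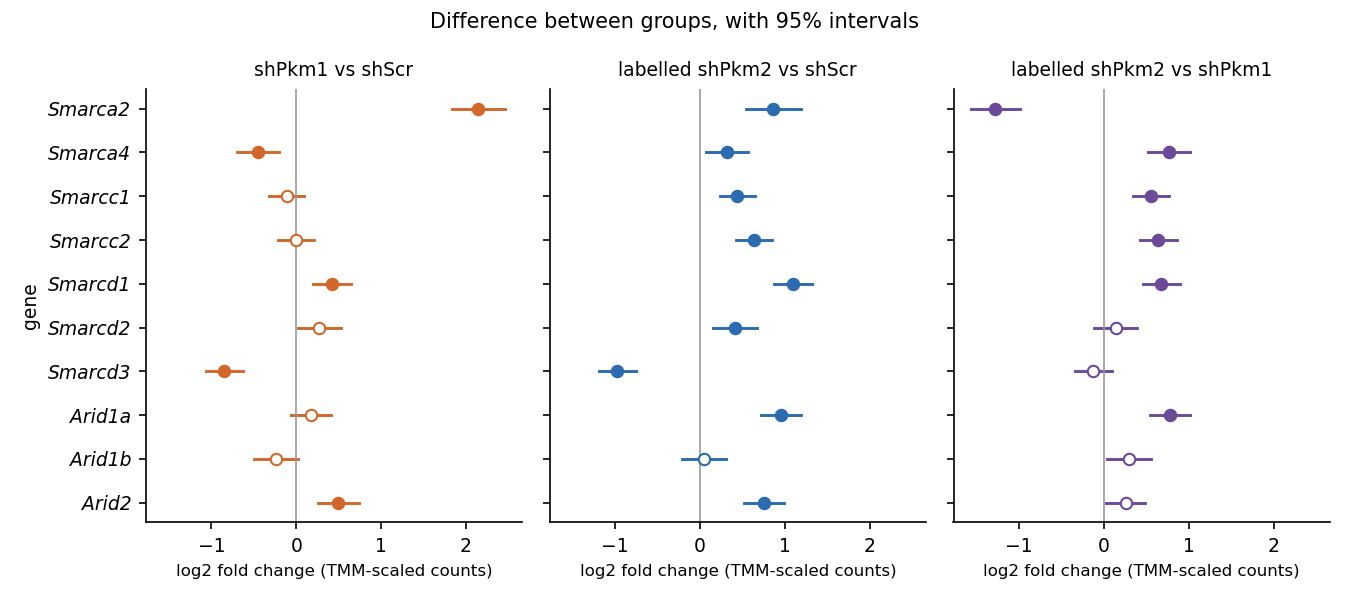
Log2 fold change of TMM-scaled counts (x axis) for each gene (y axis) in the 3 comparisons, with 95% intervals from the edgeR fit to 2 libraries per group. Filled points had an adjusted p under 0.05; Smarca2 lies farthest from 0 in shPkm1 (2.15), and Smarcd3 lies below 0 in both comparisons with shScr, while the call for Smarca4 in shPkm1 (-0.45) is lost when libraries are scaled by totals.

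The catalytic subunits changed unequally. Smarca2, the BRM ATPase (GRCm38 chr19:26605073-26778321), had 8.68 and 12.5 CPM in shScr, 47.7 and 46.7 in shPkm1, and 20.1 and 18.7 in the shPkm2-labelled libraries. All hairpin libraries were above both shScr libraries, and shPkm1 was the highest group, without overlap. The log2 fold change was 2.15 in shPkm1 (SE 0.146, adjusted p 6.48e-08, a 4.42-fold rise) and 0.86 in the shPkm2-labelled libraries (SE 0.150, adjusted p 0.000192), by edgeR's quasi-likelihood test. The direct difference was -1.28 (SE 0.135, edgeR adjusted p 3.63e-06), and -0.59 on log2(TPM + 1) (limma adjusted p 0.0129).

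Smarca4, the BRG1 ATPase (chr9:21616106-21704230), had 278 and 311 CPM in shScr, 199.8 and 232 in shPkm1, and 387 and 348 in the shPkm2-labelled libraries. The shPkm1 libraries were the lowest and those labelled shPkm2 the highest, without overlap on this scale. It fell by 0.45 on the log2 scale in shPkm1 (SE 0.113, edgeR adjusted p 0.00380) and rose by 0.32 in the shPkm2-labelled libraries (SE 0.113, edgeR adjusted p 0.0233). The fall did not hold on other scales: with library totals it was -0.26 (adjusted p 0.0765), and in TPM the 2 groups overlapped. Without shPkm1 replicate 1 it was -0.33 (edgeR adjusted p 0.0879), and the rise was 0.24 without shScr replicate 1 (adjusted p 0.0558) and 0.24 without replicate 1 labelled shPkm2 (adjusted p 0.183). On other scales that rise was larger, 0.64 with library totals (edgeR adjusted p 0.000314) and 0.77 on log2(TPM + 1) (limma adjusted p 0.000811). The direct difference of 0.77 (SE 0.114, edgeR adjusted p 8.07e-05) kept its call under every alternative run.

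As a ratio of TPM, Smarca4 exceeded Smarca2 by 14.99 and 12.8 times in shScr, 2.73 and 3.60 times in shPkm1, and 9.10 and 8.15 times in the shPkm2-labelled libraries. The 3 groups did not overlap. Smarca2, counted over all its transcripts, thus made up 6.75% ± 0.698 (SD, n = 2) of the ATPase TPM in shScr, 24.3% ± 3.57 in shPkm1 and 10.4% ± 0.723 in the shPkm2-labelled libraries. Short transcripts, described next, held 80.4%, 54.3% and 84.1% of that Smarca2 TPM in the 3 groups. For this ratio, as for every other, the smallest p of an exact two-sided permutation test with 2 libraries on each side is 0.333. None of the 18 ratio comparisons could pass a threshold, before or after adjustment.

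Smarca2 is listed with 14 transcripts, 8 long (effective length 5576 to 6131 bases) and 6 short (1703 to 2314 bases). They were split at 3000 bases after their values had been seen, so the split is described without a test. The long transcripts, which can hold the whole ATPase, summed to 0.73 and 1.5 TPM in shScr, 10.3 and 10.7 in shPkm1, and 2.69 and 2.07 in the shPkm2-labelled libraries. Both shPkm1 libraries were far above the other 4. The short transcripts summed to 3.73 and 5.07 TPM in shScr, 14.96 and 10.3 in shPkm1, and 12.6 and 12.5 in the shPkm2-labelled libraries, so the 2 hairpin groups overlapped and both lay above shScr. Long transcripts made up 19.6% ± 4.57 (SD, n = 2) of Smarca2 TPM in shScr, 45.7% ± 7.13 in shPkm1 and 15.9% ± 2.404 in the shPkm2-labelled libraries. Within each length class, single transcripts took different shares in replicates: NM_011416.2 had 1.53 and 7.17 TPM in the 2 shPkm1 libraries, and no single Smarca2 transcript was called.

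**Figure D2:**
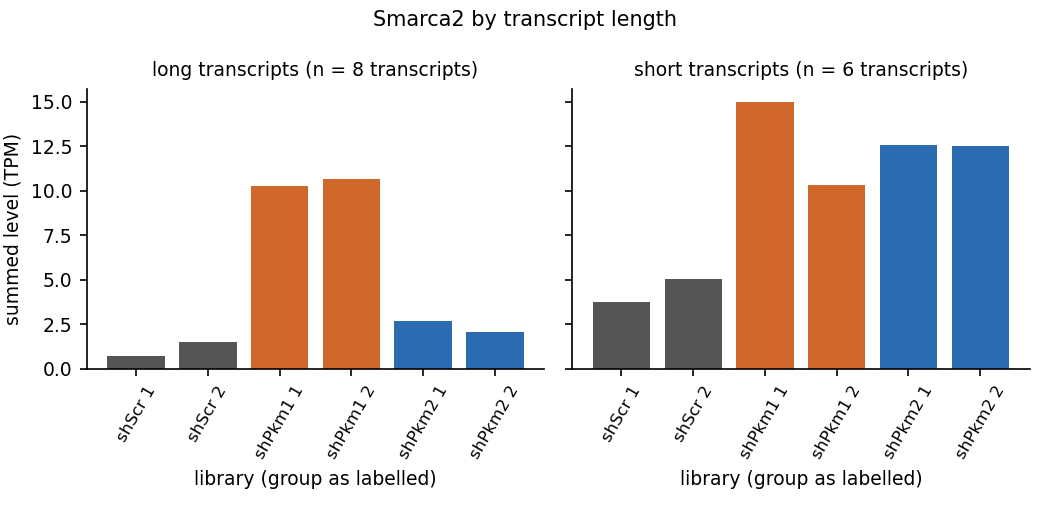
Summed TPM (y axis, from 0) of the 8 long and the 6 short Smarca2 transcripts in each library (x axis, coloured by group as labelled; 1 bar per library, no error bar). The long transcripts stand at 10.3 and 10.7 in shPkm1 against at most 2.69 elsewhere, while the short ones run from 10.3 to 14.96 in all 4 hairpin libraries.

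The Smarcc subunits, which pair to form the scaffold of the core, were both higher in the shPkm2-labelled libraries than in either other group. Smarcc1 had 129.6 and 125 CPM in shScr, 116 and 119 in shPkm1, and 181 and 165 in the shPkm2-labelled libraries. Smarcc2 had 168 and 186 CPM in shScr, 173 and 181 in shPkm1, and 284 and 267 in the shPkm2-labelled libraries. For both genes the shPkm2-labelled libraries lay above the other 4, and for Smarcc2 the shPkm1 and shScr libraries overlapped. The rises were 0.44 for Smarcc1 (SE 0.0964, edgeR adjusted p 0.00122) and 0.64 for Smarcc2 (SE 0.0999, edgeR adjusted p 8.15e-05), and against shPkm1 they were 0.55 and 0.64 (edgeR adjusted p 0.000311 and 0.000120).

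In shPkm1 neither passed the test: Smarcc1 was at -0.11 (95% interval -0.32 to 0.09) and Smarcc2 at -0.01 (-0.22 to 0.21). The sign turned with the scale, to 0.08 and 0.19 with library totals, and on log2(TPM + 1) Smarcc2 was at 0.38 (limma adjusted p 0.0314). The Smarcc1 to Smarcc2 ratio of TPM was 0.628 and 0.552 in shScr, 0.552 and 0.540 in shPkm1, and 0.522 and 0.506 in the shPkm2-labelled libraries. Smarcc2 was the higher of the pair in all 6 libraries. The log2 ratio changed by -0.11 in shPkm1, where it overlapped with shScr, and by -0.20 in the shPkm2-labelled libraries.

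The Smarcd subunits bridge the complex to transcription factors, and here the muscle-associated paralogue fell while the broadly expressed Smarcd1 rose. Smarcd3 (chr5:24592622-24624456) had 183 and 160.3 CPM in shScr, 92.9 and 98.1 in shPkm1, and 88.2 and 86.7 in the shPkm2-labelled libraries. Both shScr libraries were above the other 4. It fell by 0.85 (SE 0.101, edgeR adjusted p 9.99e-06) and by 0.97 (SE 0.101, adjusted p 1.87e-06) on the log2 scale, and the hairpin groups differed by -0.13 (95% interval -0.35 to 0.09, edgeR adjusted p 0.310).

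The fall of Smarcd3 lay in its main transcript, NM_025891.3, whose window is the one printed with the E-box. This transcript held 135.5 and 132 TPM in shScr, 93.0 and 94.6 in shPkm1, and 89.6 and 74.3 in the shPkm2-labelled libraries. It was called lower in both comparisons (-0.87, edgeR adjusted p 0.0152, and -1.14, adjusted p 0.00467). In shPkm2-labelled replicate 2 another transcript, XM_006535798.3, held 10.8 TPM, against at most 0.05 in any other library. How reads were divided between them was not tested. In the GENCODE annotation, 642 of the 1735 exon bases of the transcript with the same ends as NM_025891.3 overlap exons of Chpf2 on the opposite strand. Whether the counting used strand is not given in the sources used here, so reads of the 2 genes cannot be told apart there. Chpf2 had 744 and 1102 counts in shScr, 1267 and 1343 in shPkm1, and 1085 and 1138 in the shPkm2-labelled libraries. Smarcc1 shares 123 exon bases with Dhx30 on the opposite strand in the same way.

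Smarcd1 had 27.6 and 27.85 CPM in shScr, 38.1 and 36.3 in shPkm1, and 56.1 and 62.5 in the shPkm2-labelled libraries. The groups were ordered without overlap. It rose by 0.42 in shPkm1 (SE 0.106, edgeR adjusted p 0.00352) and by 1.10 in the shPkm2-labelled libraries (SE 0.104, adjusted p 7.88e-07), with a direct difference of 0.67 (edgeR adjusted p 9.02e-05). Smarcd2, the paralogue best known from blood cell development, had 55.1 and 71.4 CPM in shScr, 74.5 and 78.4 in shPkm1, and 81.4 and 86.9 in the shPkm2-labelled libraries. Its shScr libraries differed from each other more than the hairpin groups did. It rose by 0.41 in the shPkm2-labelled libraries (SE 0.119, edgeR adjusted p 0.00771), a call lost without replicate 2 of that label (0.37, adjusted p 0.0619), and it ran from 0.24 without shScr replicate 1 to 0.61 without shScr replicate 2. In shPkm1 it was at 0.27 (95% interval 0.01 to 0.53, edgeR adjusted p 0.0615), and there too the shScr libraries set the value: 0.099 without shScr replicate 1 (edgeR adjusted p 0.436) and 0.47 without shScr replicate 2 (adjusted p 0.000238). With library totals it was 0.46 (adjusted p 0.00911).

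Smarcd2 has 2 main transcripts with separate starts on chromosome 11 (GRCm38, minus strand). The one that starts at 106267799, NM_031878.2, held 6.76 and 10.8 TPM in shScr, 29.4 and 20.5 in shPkm1, and 30.2 and 26.1 in the shPkm2-labelled libraries. The one that starts upstream at 106272972, NM_001130187.1, held 19.9 and 28.6, 25.4 and 32.8, and 31.8 and 35.5 TPM. The shorter transcript was above shScr in all 4 hairpin libraries, while the upstream one overlapped between shScr and shPkm1. The shorter one had log2 fold changes of 1.15 (edgeR adjusted p 0.0534) and 1.26 (adjusted p 0.0312), the upstream one -0.08 and 0.06, neither called.

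Together the 3 Smarcd genes summed to 185 ± 8.85 TPM (SD, n = 2) for shScr, 177 ± 2.38 in shPkm1 and 195 ± 2.47 in the shPkm2-labelled libraries. These sums are to be read against the median log2 TPM change of all genes from shScr, 0.39 and 0.47. An even TPM sum thus lies below the typical gene. Within the Smarcd sum Smarcd3 had 75.2%, 57.1% and 49.7%, Smarcd2 18.1%, 30.7% and 31.9%, and Smarcd1 6.65%, 12.2% and 18.4%. Smarcd3 exceeded Smarcd1 in TPM by 12.1 and 10.5 times in shScr, 4.45 and 4.95 times in shPkm1, and 2.86 and 2.55 times in the shPkm2-labelled libraries, without overlap. The Smarcd1 to Smarcd2 ratio was 0.63 higher on the log2 scale in the shPkm2-labelled libraries than in shScr, and the shScr and shPkm1 libraries overlapped.

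**Figure D3:**
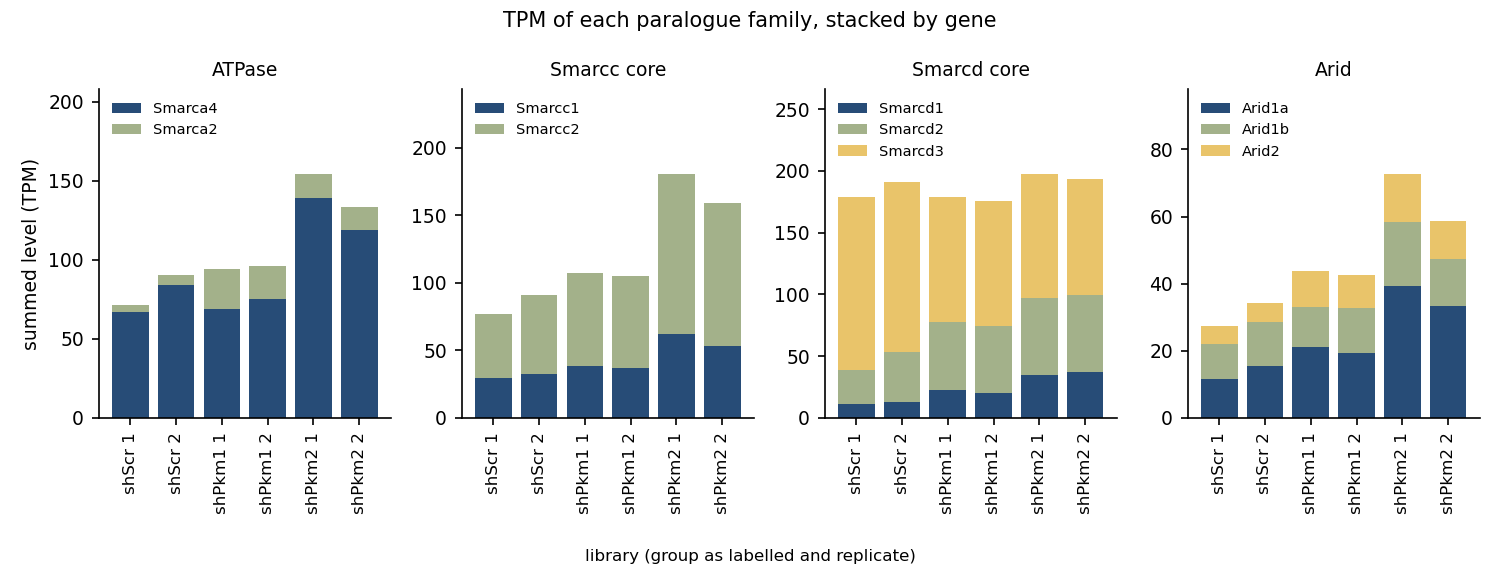
TPM (y axis, from 0; each panel has its own scale) of the ATPase, Smarcc, Smarcd and Arid genes stacked within each library (x axis; 1 bar per library, no error bar). The Smarcd sum stays between 175 and 197 while its Smarcd3 part shrinks, and the other 3 sums are highest in the shPkm2-labelled libraries. The median log2 TPM change of all genes from shScr was 0.39 in shPkm1 and 0.47 in the shPkm2-labelled libraries, so an even TPM sum lies below the typical gene.

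The Arid subunits carry DNA-binding domains and define the form of the complex. Arid1a (chr4:133679008-133756769) had 65.9 and 77.9 CPM in shScr, 82.2 and 80.4 in shPkm1, and 147 and 132 in the shPkm2-labelled libraries. The shPkm2-labelled libraries stood well above the other 4. Arid1a rose there by 0.95 (SE 0.108, edgeR adjusted p 4.42e-06) and was 0.78 above shPkm1 (edgeR adjusted p 4.40e-05). In shPkm1 it was at 0.18 (95% interval -0.06 to 0.41, edgeR adjusted p 0.175), and at 0.37 with library totals (adjusted p 0.0202). Leaving out shScr replicate 1 gave 0.061 (edgeR adjusted p 0.651), and leaving out shScr replicate 2 gave 0.30 (adjusted p 0.0166).

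Arid1b, the alternative BAF subunit, had 58.7 and 64.1 CPM in shScr, 48.8 and 55.0 in shPkm1, and 70.6 and 56.4 in the shPkm2-labelled libraries. The shPkm2-labelled libraries spanned both shScr values. In the fit to all 6 libraries with TMM it passed the test in no comparison, with -0.24 in shPkm1 (95% interval -0.50 to 0.02), 0.05 in the shPkm2-labelled libraries (-0.21 to 0.31) and 0.29 between them (0.03 to 0.55, edgeR adjusted p 0.0545). With library totals the values against shScr were -0.05 and 0.37 (adjusted p 0.0190). Without shScr replicate 1 the shPkm1 value was -0.31. On log2(TPM + 1) the values against shScr were 0.10 in shPkm1 (limma adjusted p 0.603) and 0.43 in the shPkm2-labelled libraries (limma adjusted p 0.0330). The direct difference passed in the fit of only the groups compared (0.29, edgeR adjusted p 0.00504), with library totals (0.42, adjusted p 0.0126) and without shPkm2-labelled replicate 2 (0.44, adjusted p 0.0239), and was 0.11 without shPkm2-labelled replicate 1 (adjusted p 0.561).

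Arid2, the PBAF subunit, had 37.3 and 35.6 CPM in shScr, 52.4 and 50.3 in shPkm1, and 66.8 and 56.0 in the shPkm2-labelled libraries. All hairpin libraries were above shScr. It rose by 0.50 (SE 0.111, edgeR adjusted p 0.00162) and 0.75 (SE 0.110, adjusted p 4.25e-05), and the hairpin groups differed by 0.26 (95% interval 0.03 to 0.49, edgeR adjusted p 0.0590). That difference also depended on the fit. It passed with library totals (0.39, edgeR adjusted p 0.0109), in the fit of only the groups compared (0.26, adjusted p 0.0119) and without shPkm2-labelled replicate 2 (0.37, adjusted p 0.0396), and was 0.12 without shPkm2-labelled replicate 1 (adjusted p 0.530).

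Arid1b per Arid1a in TPM was 0.920 and 0.859 in shScr, 0.575 and 0.694 in shPkm1, and 0.478 and 0.423 in the shPkm2-labelled libraries. The 2 genes were thus near equal in shScr, and in the shPkm2-labelled libraries Arid1a stood well above Arid1b, without overlap of the ratio between groups. Arid2 made up 18.1%, 23.7% and 19.5% of the Arid TPM in the 3 groups, its ratio to the Arid1 genes being 0.50 higher on the log2 scale in shPkm1 than in shScr and overlapping between shScr and the shPkm2-labelled libraries. The summed Arid TPM was 30.9 ± 4.80 (SD, n = 2), 43.3 ± 0.870 and 65.6 ± 9.80, to be read against the median log2 TPM change of all genes from shScr (0.39 and 0.47).

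**Figure D4:**
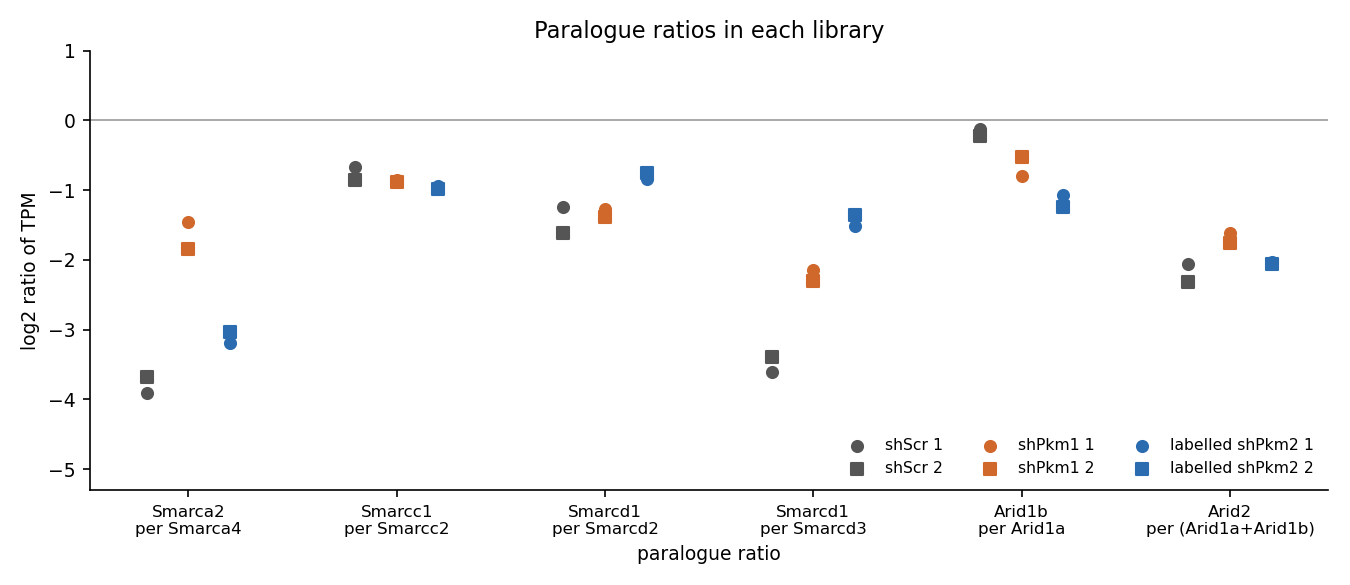
Log2 ratio of TPM (y axis) of 6 pairs of paralogues or sums (x axis), 1 point per library, coloured by group as labelled and shaped by replicate. Smarca2 per Smarca4 is highest in shPkm1, Smarcd1 per Smarcd3 rises from shScr to the shPkm2-labelled libraries, and Arid1b per Arid1a falls in the same order.

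By level, the order in shScr was Smarcd3 (139 TPM), Smarca4 (75.5), Smarcc2 (53.0), Smarcd2 (33.6), Smarcc1 (31.0), Arid1a (13.4), Smarcd1 (12.3), Arid1b (11.9), Arid2 (5.54) and Smarca2 (5.51). Smarcd2 and Smarcc1 overlapped, as did Arid1a with Smarcd1, Smarcd1 with Arid1b, and Arid2 with Smarca2. In shPkm1 Smarcd3 remained first (101 TPM) and Smarca2 stood above Smarcd1 and all 3 Arid genes (23.1 TPM), overlapping Smarcd1 (21.6) and Arid1a (20.2). In the shPkm2-labelled libraries Smarca4 was first (129 TPM), Smarcc2 next (112) and Smarcd3 after it (97.1), without overlap. Arid2 was last by mean (12.8 TPM), though its libraries overlapped those of Arid1b (16.5).

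**Figure D5:**
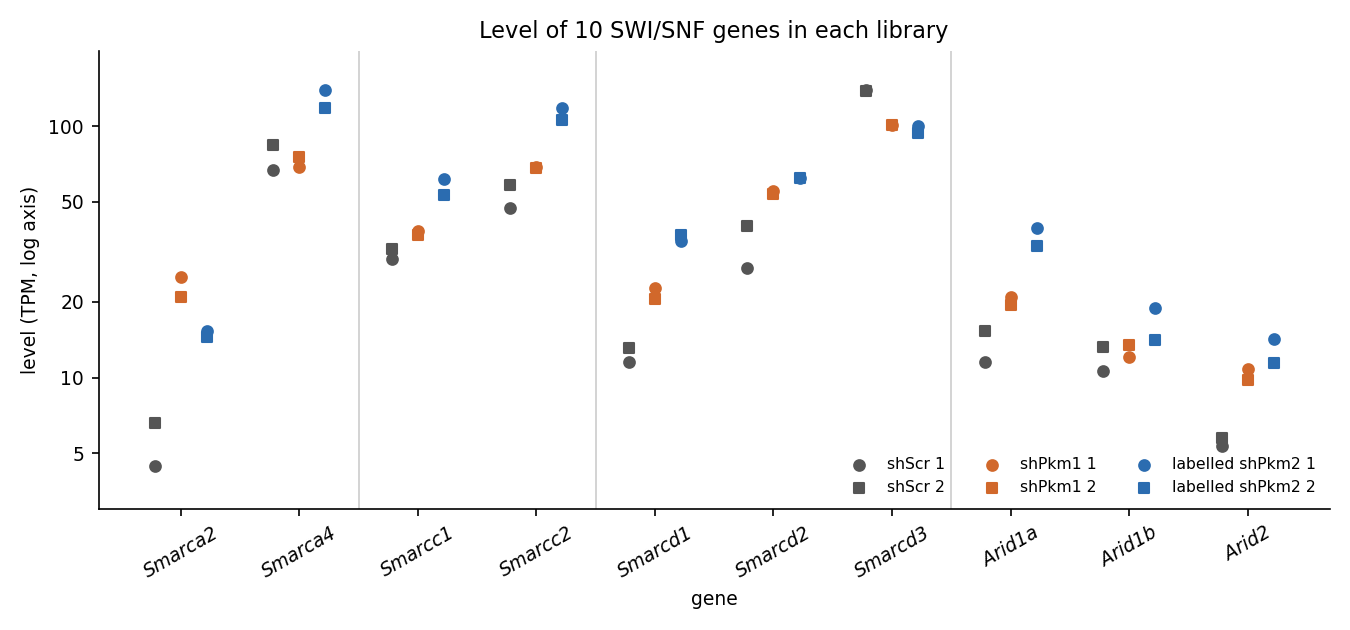
TPM (log axis) of each gene in each library, 1 point per library, coloured by group as labelled and shaped by replicate. Smarcd3 is the only one of the 10 whose hairpin libraries all lie below shScr, at 94.3 to 101 TPM against 138 and 139.7.

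Fewer calls were made on single transcripts than on genes. Counted were 22 transcripts with at least 10% of their gene's TPM in some library and enough counts. Smarcc1, Smarcd1 and Arid2 are listed with 1 transcript each and were left out. Of the 22, 1 was called in shPkm1 (Smarcd3 NM_025891.3), against 10.8% of all 33433 transcripts tested. In the shPkm2-labelled libraries, 5 were called higher and 1 lower, against 17.2%, and in the direct comparison 3 were called, all higher, against 7.91%. Those called higher included the Smarcc2 transcript NM_198160.2 (0.64, edgeR adjusted p 0.00911) and 3 transcripts of Arid1a, led by XM_006539327.3 (1.43, edgeR adjusted p 0.00714). Arid1a was thus called higher on 3 of its transcripts in the fit as reported, the other 2 with edgeR adjusted p 0.0312 and 0.0439. Smarca4 counts were spread over 5 transcripts of which none was called against shScr. Among the alternatives for transcripts 33 lost a call, so calls on single transcripts are not firm.

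Of 21 other SWI/SNF subunits, 17 were tested. In shPkm1 4 were higher and 5 lower (median -0.05), in the shPkm2-labelled libraries 7 were higher and 5 lower (median 0.23), and directly 7 were higher and 4 lower (median 0.17). That is 52.9%, 70.6% and 64.7% called, against 63.1%, 68.0% and 53.0% of all genes. With library totals the splits were 6 higher and 2 lower in shPkm1, 11 and 2 in the shPkm2-labelled libraries, and 8 and 3 directly. The share of all genes' calls that were higher was then 65.8%, 69.3% and 61.3%. On log2(TPM + 1) with limma none of the 17 was called lower than shScr in either hairpin group. The median log2 TPM change of all genes from shScr was 0.39 and 0.47, and their limma calls were not counted. Bicral (1.02), a subunit of the non-canonical form, and the PBAF subunit Phf10 (0.65) had the largest rises in shPkm1, and Bcl7c (-0.53) and the PHD finger subunit Dpf2 (-0.49) the largest falls. In the shPkm2-labelled libraries these were the PBAF bromodomain subunit Pbrm1 (1.12) and Ss18 (0.92), and Bcl7a (-0.72) and Dpf2 (-0.59). Directly, Actl6a (0.93), the actin-like subunit of proliferating cells, and Dpf1 (0.88) were higher and Phf10 (-0.63) and Bcl7a (-0.61) lower. Among the 4 too low to test was Dpf3, a subunit known from heart and skeletal muscle, with 17 and 9 counts in shScr, 2 and 1 in shPkm1, and 0 and 1 in the shPkm2-labelled libraries. It was singled out after its values were seen.

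For 3 members the genes with the most similar pattern were sought among 10713 genes, as the smallest root mean square difference of centred log2 CPM over the 6 libraries. For Smarca2 they were Rab30 (0.103), Grb14 (0.103) and Bmper (0.116). For Smarcd3 they were Vps26c (0.0370), Mrpl53 (0.0387) and Akap1 (0.0389), and for Arid1a Zcchc14 (0.0368), Nfkbiz (0.0450) and Snx9 (0.0504). Since these libraries form 3 groups, the measure ranks mainly by the group means.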

How the data were processed

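RNA of 6 libraries was measured in C2C12 cells at 48 h of differentiation, with groups read from the titles. The deposited table holds 57920 transcript rows, each with an estimated count, a TPM and an FPKM value for each library, per the file headers. Per the submitters' processing notes, the tools named are HISAT, StringTie, Bowtie, RSEM and DESeq2 and the build is mm10. Their roles and versions, and strandedness, are not given in the sources used here. The authors' TPM values are scaled to length and library, and the deposited FPKM values were not used for results. A further 9 columns of the authors' group means were left out.

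Estimated counts and TPM were added up by NCBI gene number (17558 genes, 17445 matched to a symbol), and estimated counts were rounded to whole numbers. Genes were filtered with filterByExpr (minimum count 10, minimum total 15), leaving 12643, and scaled by TMM. All 6 libraries entered 1 edgeR 4.0.16 quasi-likelihood fit (R 4.3.3), with Benjamini-Hochberg adjustment over all genes and a threshold of 0.05, two-sided. Transcripts were fitted likewise (33433 tested). The spread was estimated on 3 residual degrees of freedom, with a biological coefficient of variation of 0.0851. The scripts were tested on simulated data. Depth of 18216896 to 19796036 counts limits precision mainly for Smarca2 and its transcripts.

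The members and lists were chosen with earlier results of these data known. The genes named were the 10 members, Myod1, Myog, Mki67 and Pkm, the 2 largest rises and falls among called other subunits in each comparison, member transcripts with at least 10% of their gene's TPM in some library, and the 3 genes most like Smarca2, Smarcd3 and Arid1a among those with a mean of at least 50 counts. Members with 1 listed transcript were left out of the transcript list. Dpf3 and the length split of Smarca2 were chosen after values were seen. Alternatives were DESeq2 1.42.0, its size factors in edgeR, library totals, no low-count filter, fits of only the compared groups, a replicate block, limma 3.58.1 on log2(TPM + 1) and log2(TPM + 0.1), other ratio definitions, and leaving out each library. Tables and figures were made with Python 3.11.15, pandas 2.3.3 and matplotlib 3.10.9.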

Additional observations from a re-analysis of the deposited data

Results flagged for a closer look

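The shPkm2-labelled libraries and those of shPkm1 differed from each other, by the direct edgeR test, in 6 of the 10 members, against 53.0% of all genes tested. On the log2 scale Smarca2 was at -1.28, the ATPase Smarca4 at 0.77, the scaffold subunits Smarcc1 and Smarcc2 at 0.55 and 0.64, Smarcd1 at 0.67 and Arid1a at 0.78 (libraries labelled shPkm2 minus shPkm1). Smarca4 was the one member called in opposite directions against shScr (-0.45 in shPkm1 and 0.32 in the shPkm2-labelled libraries), though both of those calls were lost under some alternatives. With 2 libraries per group no single library could be checked as an outlier.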

How the results depend on the processing

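Total counts of called members and of called other subunits stayed within 1.5 times under each of the 72 alternative counts. Their split did not. In shPkm1 the members went from 3 higher and 2 lower to 5 and 1 with library totals and 6 and 1 on log2(TPM + 1). The other subunits went from 4 and 5 to 6 and 2 with library totals and 6 and 0 on log2(TPM + 1). Over all genes, the share of calls that were higher went from 50.3% to 65.8% with library totals, and was not counted on log2(TPM + 1). Of 360 alternative fold changes of members, 334 kept their side of the threshold, 18 gained a call and 7 lost one. The sign differed in 15, over 5 comparisons, none of them called as reported: Smarcc1, Smarcc2 and Arid1b in shPkm1, Arid1b in the shPkm2-labelled libraries and Smarcd3 directly. Of these 15, 1 was called, Smarcc2 in shPkm1 at 0.38 on log2(TPM + 1). Of the 396 alternatives for transcripts, 33 lost a call, so single transcripts are less firm than genes. Only called transcripts could lose one. Of 22, these were 1 in shPkm1, 5 higher and 1 lower in the shPkm2-labelled libraries, and 3 directly. Most of the 396 alternatives thus had no call to lose. For ratios, 27 of 108 alternatives moved by more than the spread between libraries. With summed estimated counts, the Smarca2 to Smarca4 log2 change was 2.63 in shPkm1 and -2.05 in the direct comparison. With the most abundant transcript of each gene, for Smarca2 the short XM_006527288.2, these were 1.91 and -1.21. On that basis Smarcd1 to Smarcd2 was 0.54 in shPkm1 and 1.06 in the shPkm2-labelled libraries, Smarcd1 to Smarcd3 2.26 in the latter and 0.94 directly, Arid1b to Arid1a -0.87 and -1.38, and Arid2 to the Arid1 genes 0.37 in shPkm1. The cause was not tested.

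Leaving out each library gave 1.95 to 2.34 and -1.66 to -1.26 for Smarca2 to Smarca4 (shPkm1, and direct), -0.20 to -0.014 and -0.29 to -0.10 for Smarcc1 to Smarcc2 (shPkm1, and labelled shPkm2), -0.088 to 0.28 and 0.45 to 0.81 for Smarcd1 to Smarcd2, and 0.37 to 0.62 and 0.011 to 0.27 for Arid2 to the Arid1 genes.

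With the replicate number as a block, 6, 9 and 6 members were called in the 3 comparisons, against 5, 9 and 6 without it, the added one being Smarcd2 in shPkm1 (0.28, edgeR adjusted p 0.0364). The numbers were not taken as pairs, since deviations of same-numbered libraries correlated across genes at -0.02, 0.04 and 0.11. Smarca2 has the fewest counts among the members, 137 and 222 in shScr, which limits its transcripts most.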
